A study of Homo sapiens with 12 samples.

Results

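The genes described here are the 44 members of the DNA replication machinery that open, license and copy origins: the MCM helicase and its activators, the origin recognition complex (ORC), the replicative polymerases, the clamp and its loader, RPA and the chaperones that place histones behind the fork. They were picked by symbol from a written list of complexes, and all 44 were found among the 28008 genes of the count tables. The RNA-seq was carried out in 2 cell lines, QGP-1/tet-MUC1shRNA and its BON-1 counterpart, BON-1/tet-MUC1shRNA, both established human pancreatic neuroendocrine tumor (pNET) lines with a doxycycline (DOX)-inducible short hairpin RNA against MUC1. Each line was treated with vehicle (0.1% DMSO) or with 500 ng/mL DOX for 7 days, which gave 4 groups of 3 biologic replicates and 12 libraries. All 4 groups carry the hairpin vector, in cells selected with puromycin, and only DOX turns it on. Libraries from cells with a control hairpin and DOX were not analysed here, so the effect of DOX itself and that of the hairpin cannot be told apart.

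DNA replication starts from origins that ORC marks and on which CDC6 and CDT1 load the MCM2-7 ring while the cell is in G1. In S phase, CDC45 and the GINS complex join that ring to form the active helicase, polymerase alpha-primase lays down primers, RFC loads the PCNA clamp, and polymerases epsilon and delta extend the leading and lagging strands over RPA-coated templates. Many of these genes are transcribed under E2F factors as cells enter S phase, and together they are commonly read as a sign of proliferation.

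MUC1, the target of the hairpin, fell in both lines. Levels in CPM (read counts divided by library size after TMM scaling, a between-library normalization) were 7.19, 5.81 and 5.65 in the QGP-1 vehicle libraries and 0.705, 1.04 and 0.744 with DOX (log2 fold change -2.91, SE 0.23, edgeR adjusted p = 8.24e-07). In BON-1 cells they were 20.6, 20.7 and 15.6 and 1.48, 2.65 and 3.97 (log2 fold change -2.79, SE 0.22, edgeR adjusted p = 6.51e-11). No DOX library overlapped a vehicle library in either line. Here and below, values are given in the order of replicates 1, 2 and 3, the standard error (SE) belongs to the log2 fold change of DOX over vehicle, and a gene was called at a Benjamini-Hochberg adjusted p below 0.05, whatever its fold change.

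The QGP-1 libraries held 38224144 to 50525926 counts and the BON-1 libraries 15981954 to 28484324. Of 8 neuroendocrine markers, 7 were above 1 CPM in all 6 libraries of each line, the exceptions being NEUROD1, listed at 0 in every QGP-1 library, and NCAM1, at 0 to 0.111 CPM in BON-1 libraries. Their summed level ran from 3231 to 3756 CPM with vehicle and from 3714 to 4205 CPM with DOX in QGP-1 cells, and from 10638 to 13951 CPM and from 8009 to 8618 CPM in BON-1 cells. CHGA, a granule protein, fell in the latter from a mean of 8104 to 2936 CPM (log2 fold change -1.46, SE 0.11, edgeR adjusted p = 2.45e-11). SYP was also called lower in BON-1 cells (log2 fold change -0.34, edgeR adjusted p = 0.0192), whereas SCG2 was called higher (0.45, edgeR adjusted p = 0.000126). In QGP-1 cells CHGB was called higher (0.39, edgeR adjusted p = 0.000731) and NCAM1 lower (-0.51, edgeR adjusted p = 0.000384). The other neuroendocrine markers tested were not called. Among 11 markers of fibroblasts, endothelial and immune cells, COL1A1 (0.953 to 3.19 CPM) and CD68 (0.551 to 1.74 CPM) passed 1 CPM in some QGP-1 libraries, and LUM (4.72 to 11.1 CPM) and CD68 (23.7 to 52.6 CPM) did so in BON-1 libraries. The summed level of the 3 immune markers ran from 23.7 to 26.3 CPM with vehicle and from 48.5 to 52.8 CPM with DOX in BON-1 cells, nearly all of it CD68, with PTPRC and CD3E at or near 0. The summed level of the 5 fibroblast markers ran from 5.22 to 6.61 CPM and from 10.7 to 11.5 CPM, in that order. In QGP-1 cells the fibroblast sum ran from 1.73 to 3.59 CPM with vehicle and from 1.14 to 1.29 CPM with DOX. The part of these shifts in the results was not tested. Small structural RNAs (RN7SK and RN7SL genes) took 5.37% to 6.38% of the counts in QGP-1 vehicle libraries and 3.30% to 4.53% with DOX, and 1.35% to 2.39% and 1.55% to 3.77% in BON-1 cells. In each line 1 DOX library was less like the other two: QGP-1 DOX replicate 1 (correlation of log2 CPM 0.984 to 0.985, against 0.993 between the others) and BON-1 DOX replicate 3 (0.984 to 0.985, against 0.989).

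The promoters of the members were searched for the E2F motif. Many replication genes are known to be transcribed under E2F factors, so a high share was likely from the choice of genes alone. RefSeq promoters on GRCh38.p14, from 250 bases before to 50 bases after the start of transcription, were found for 38 of the 44 members. The E2F motif TTTNNCGC, with each N read as C or G and searched on both strands, was present in a promoter of 18 of these 38 members (47.4%). Counted in the same way, it was present for 3.99% of all 27305 genes with a promoter. For genes tested in both lines that had a promoter, the share was 6.75%. The sequences of 3 members are shown, 160 bases each up to the base before the start, because they carry such a match and fell with DOX in at least 1 line. Capitals mark the match and all other bases are in lower case. The MCM6 window, on the minus strand at chr2:135876444-135876603, holds the 12-base element TTTGGCGCGAAA at 2 places, each with overlapping matches on both strands. The CDT1 window is on the plus strand at chr16:88803629-88803788 and the PCNA window on the minus strand at chr20:5126623-5126782.
MCM6: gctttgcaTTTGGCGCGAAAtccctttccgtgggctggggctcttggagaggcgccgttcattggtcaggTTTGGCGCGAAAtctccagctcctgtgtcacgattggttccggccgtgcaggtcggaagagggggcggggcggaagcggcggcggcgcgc
CDT1: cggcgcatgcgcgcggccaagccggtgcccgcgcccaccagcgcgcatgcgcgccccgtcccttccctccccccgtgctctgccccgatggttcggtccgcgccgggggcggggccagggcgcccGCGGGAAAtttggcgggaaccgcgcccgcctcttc
PCNA: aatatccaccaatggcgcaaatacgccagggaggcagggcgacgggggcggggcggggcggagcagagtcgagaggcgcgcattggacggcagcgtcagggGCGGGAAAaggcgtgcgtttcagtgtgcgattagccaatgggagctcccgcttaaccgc
The match was found both in members that changed and in members that were not called. It was present in 7 of the 12 members that were lower in both lines and in 4 of the 10 with a promoter that were called in neither line. ORC3, which was higher in both lines, holds GCGGGAAA at 5 to 12 bases before its RefSeq start.

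To address how the replication machinery responds to MUC1 silencing in QGP-1 cells, the 3 DOX libraries were compared with the 3 vehicle libraries. The replication genes were mostly lower with DOX: 24 of 44 members were called lower (54.5%), 1 was called higher and 19 were not called, beside a background of 17.7 percent of 15089 tested genes called lower and 17.3 percent called higher. The largest fall was that of PRIM1, the catalytic primase subunit (log2 fold change -0.74), and the only member called higher was the ORC subunit ORC3 (0.46). The changes were of modest size, between -0.74 and 0.46 on the log2 scale. The median of the members was 0.22 below that of all genes, and 37 of 44 values were below 0. All 3 DOX libraries lay below all 3 vehicle libraries for 23 of 44 members, a larger share than the 23.2 percent of tested genes. They lay above them for 2 of 44, a smaller share than the 23.5 percent of tested genes. Reads of the 44 members made up 0.415% ± 0.00548 of all counts with vehicle and 0.355% ± 0.00972 with DOX (SD, n = 3 each), with no overlap between the groups. In bulk libraries, fewer cells of a type and less RNA per cell cannot be told apart. Without DOX replicate 1, the library least like its group, 22 members were called lower and 1 higher.

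In BON-1 cells the same comparison gave 18 of 44 members lower (40.9%), 2 higher and 24 not called, beside a background of 18.3 percent of 14625 tested genes called lower and 17.0 percent called higher. CHAF1B, a subunit of the histone chaperone CAF-1, fell most (-0.65) and the ORC subunit ORC4 rose most (0.41), and the values ran from -0.65 to 0.41. The median of the members was 0.21 below that of all genes, and 36 of 44 values were below 0. The DOX libraries lay below all vehicle libraries for 22 of 44 members, a larger share than the 23.9 percent of tested genes. They lay above them for 5 of 44, a smaller share than the 22.4 percent of tested genes. The members' share of all counts was 0.346% ± 0.00618 with vehicle and 0.307% ± 0.00322 with DOX (SD, n = 3 each), again without overlap. Without DOX replicate 3, the library least like its group, 17 members were called lower. The count of members called higher was 1 without vehicle replicate 3, DOX replicate 2 or DOX replicate 3.

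Of the members called lower, 12 were called in both lines, which is 27.3% of the 44, beside 7.23 percent of the 13535 genes that both fits tested. These 12 were 50% of the members lower in QGP-1 cells and 66.7% of those lower in BON-1 cells. Among all genes tested in both lines, the genes lower in both were 39.5% of those lower in QGP-1 cells and 39.5% of those lower in BON-1 cells. They were the helicase subunit MCM6, the GINS subunit GINS3, the loader CDT1, the polymerase subunits POLA1, POLA2, PRIM1 and POLE2, the clamp loader subunits RFC2, RFC3 and RFC4, and the chaperones CHAF1B and ASF1B. ORC3 was higher in both lines, as were 6.88 percent of genes, and 0 members were called in opposite directions, beside 2.69 percent of genes. Another 12 members were called in neither line.

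**Figure D1:**
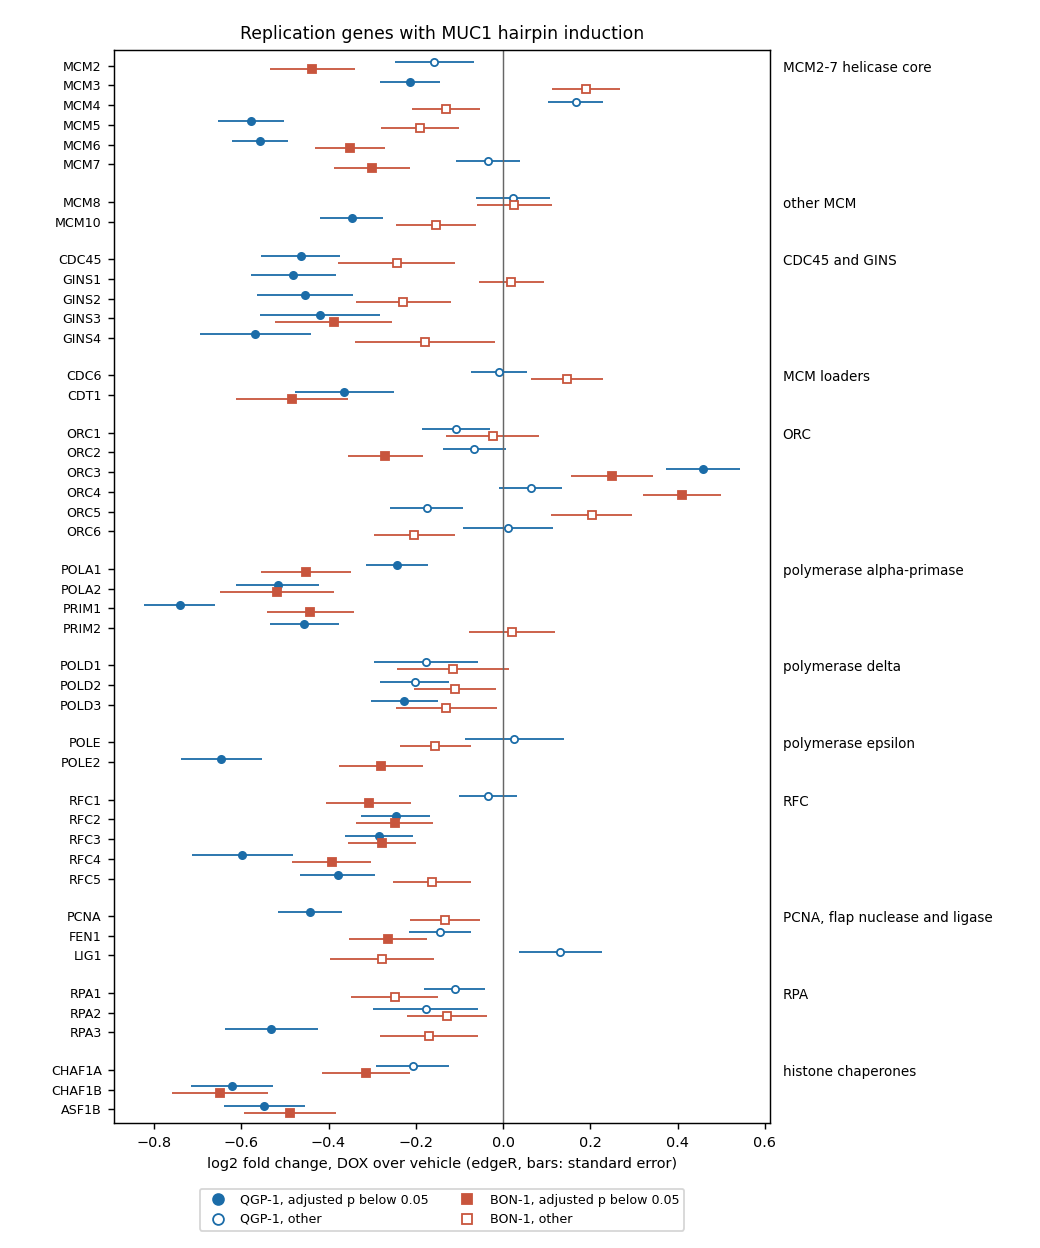
The plot gives the log2 fold change of DOX over vehicle (horizontal axis, edgeR, bars show the standard error) for the 44 replication genes grouped by complex, as blue circles for QGP-1 and red squares for BON-1 cells, filled where the adjusted p is below 0.05. Most points lie left of 0, from -0.74 for PRIM1 in QGP-1 cells, while ORC3 at 0.46 and ORC4 at 0.41 mark the right-hand end.

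The ORC subunits, which mark origins, were the one complex of the 12 compared whose median was not below that of all genes in both lines. In QGP-1 cells 0 of 6 were called lower, beside 17.7 percent of genes, and 1 higher (16.7%), beside 17.3 percent. The median there was 0.01 below that of all genes, a value that turned to 0.03 above it without vehicle replicate 3. In BON-1 cells 1 was lower (16.7%), beside 18.3 percent of genes, and 2 were higher (33.3%), beside 17.0 percent. The median there was 0.10 above that of all genes. ORC3 (chr6:87590067-87667453) had levels of 31.5, 30.6 and 31.9 CPM with vehicle and 40.6, 41.9 and 46.5 CPM with DOX in QGP-1 cells (log2 fold change 0.46, SE 0.08, edgeR adjusted p = 0.000898). In BON-1 cells its levels were 40.3, 35.6 and 37.9 CPM and 42.5, 45.7 and 47.2 CPM (log2 fold change 0.25, SE 0.09, edgeR adjusted p = 0.0388). All DOX libraries were above all vehicle libraries in both lines, but the BON-1 call was lost without vehicle replicate 2, vehicle replicate 3, DOX replicate 2 or DOX replicate 3 (edgeR adjusted p between 0.09402 and 0.183) and with library-size scaling, no low-count filter or limma on centred TPM (adjusted p between 0.0593 and 0.0822). ORC4 (chr2:147930396-148021604) was at 119, 132 and 153 CPM with vehicle and 183, 159 and 194 CPM with DOX in BON-1 cells (log2 fold change 0.41, SE 0.09, edgeR adjusted p = 0.0006097). In QGP-1 cells it was at 179, 181 and 199 CPM and 189, 185 and 210.4 CPM (log2 fold change 0.06, SE 0.07, edgeR adjusted p = 0.538). The rise in BON-1 cells came without overlap between groups, whereas the QGP-1 groups overlapped. The annotated exons of ORC4 share 431 bases with ACVR2A and 157 bases with MBD5 on the other strand. ORC5 was at 67.1, 66.2 and 77.3 CPM with vehicle and 58.5, 61.8 and 66.3 CPM with DOX in QGP-1 cells (log2 fold change -0.18, SE 0.08, edgeR adjusted p = 0.122), with overlapping groups. In BON-1 cells it stood at 43.8, 53.7 and 46.3 CPM and 55.003, 54.9 and 55.6 CPM (log2 fold change 0.20, SE 0.09, edgeR adjusted p = 0.0883), with all DOX libraries above. ORC2 was called lower in BON-1 cells (log2 fold change -0.27, SE 0.09, edgeR adjusted p = 0.0147), a call lost without vehicle replicate 1 or DOX replicate 2 (edgeR adjusted p between 0.0625 and 0.0738), and its QGP-1 value was -0.07. ORC1, the largest subunit, had values of -0.11 in QGP-1 and -0.02 in BON-1 cells, and ORC6 of 0.01 and -0.20, with no call.

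CDC6 and CDT1, which load the MCM ring onto ORC-bound DNA, differed from each other. CDT1 (chr16:88803789-88809258) was at 37.8, 40.1 and 29.02 CPM with vehicle and 26.1, 29.3 and 27.6 CPM with DOX in QGP-1 cells (log2 fold change -0.36, SE 0.11, edgeR adjusted p = 0.0228). In BON-1 cells CDT1 was at 33.6, 29.6 and 30.4 CPM and 24.8, 25.6 and 16.7 CPM (log2 fold change -0.48, SE 0.13, edgeR adjusted p = 0.004095). The groups did not overlap in BON-1 cells, but in QGP-1 cells vehicle replicate 3 lay within the DOX range, and the call there was lost without vehicle replicate 1, vehicle replicate 2 or DOX replicate 1 (edgeR adjusted p between 0.0652 and 0.132). CDC6 was not called in either line, with values of -0.01 (approximate 95% interval -0.14 to 0.12) in QGP-1 and 0.15 (approximate 95% interval -0.02 to 0.31) in BON-1 cells.

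The MCM2-7 ring, the motor of the replicative helicase, had 3 of 6 subunits called lower in each line, but MCM6 alone was lower in both. The median of the ring was 0.17 below that of all genes in QGP-1 and 0.24 below it in BON-1 cells. MCM6 (chr2:135839626-135876443), whose promoter is printed above, was at 309, 299.7 and 319 CPM with vehicle and 213, 200.1 and 217 CPM with DOX in QGP-1 cells (log2 fold change -0.56, SE 0.06, edgeR adjusted p = 2.57e-05). In BON-1 cells MCM6 was at 129, 113 and 117 CPM and 94.6, 97.98 and 88.8 CPM (log2 fold change -0.35, SE 0.08, edgeR adjusted p = 0.000988). Neither line had overlapping groups for MCM6. MCM5 stood at 93.2, 95.3 and 83.8 CPM with vehicle and 58.5, 62.1 and 61.8 CPM with DOX in QGP-1 cells (log2 fold change -0.58, SE 0.08, edgeR adjusted p = 6.68e-05). In BON-1 cells MCM5 stood at 64.8, 59.2 and 54.9 CPM and 52.1, 54.2 and 50.6 CPM (log2 fold change -0.19, SE 0.09, edgeR adjusted p = 0.0974). All DOX libraries were below all vehicle libraries for MCM5 in both lines, by a small margin in BON-1 cells. MCM3 had 197, 195 and 174 CPM with vehicle and 166, 164 and 159 CPM with DOX in QGP-1 cells (log2 fold change -0.21, SE 0.07, edgeR adjusted p = 0.0268), a call lost without vehicle replicate 1, vehicle replicate 2, DOX replicate 2 or DOX replicate 3 (edgeR adjusted p between 0.0659 and 0.113) and with limma on centred TPM (adjusted p = 0.0995). In BON-1 cells MCM3 had 108, 117 and 116 CPM and 125, 138 and 125 CPM (log2 fold change 0.19, SE 0.08, edgeR adjusted p = 0.0578). For MCM3 the DOX libraries were below all vehicle libraries in QGP-1 and above all of them in BON-1 cells.

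MCM2, another ring subunit, was at 78.2, 65.7 and 66.3 CPM with vehicle and 53.6, 57.3 and 44.6 CPM with DOX in BON-1 cells (log2 fold change -0.44, SE 0.10, edgeR adjusted p = 0.000807). In QGP-1 cells MCM2 was at 85.7, 79.9 and 66.6 CPM and 69.3, 71.9 and 66.8 CPM (log2 fold change -0.16, SE 0.09, edgeR adjusted p = 0.196). The BON-1 groups did not overlap and the QGP-1 groups did. MCM7 was called lower in BON-1 cells (log2 fold change -0.30, SE 0.09, edgeR adjusted p = 0.00744), a call lost without vehicle replicate 1 (edgeR adjusted p = 0.0506), and its QGP-1 value was -0.03. MCM7 shares 392 exonic bases with AP4M1 on the other strand and 29 with MIR93 on its own. MCM4 was not called, with 0.17 in QGP-1 (edgeR adjusted p = 0.0526) and -0.13 in BON-1 cells. In QGP-1 cells all its DOX libraries were above all vehicle libraries. It was called higher there in 5 of 13 alternative runs, but in 0 of the fits that left out a library. Outside the ring, MCM10, which binds the helicase as it is activated, was at 79.5, 79.1 and 81.2 CPM with vehicle and 59.6, 63.8 and 65.1 CPM with DOX in QGP-1 cells (log2 fold change -0.35, SE 0.07, edgeR adjusted p = 0.00196). In BON-1 cells MCM10 was at 59.6, 50.5 and 50.5 CPM and 48.6, 48.9 and 46.97 CPM (log2 fold change -0.15, SE 0.09, edgeR adjusted p = 0.199). The groups of both lines were apart for MCM10, although the BON-1 difference was not called. MCM8, a paralog that acts in homologous recombination, had values of 0.02 and 0.03 with no call.

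CDC45 and the 4 GINS subunits, which turn the loaded ring into an active helicase, were called lower in 5 of 5 cases in QGP-1 cells and in 1 of 5 in BON-1 cells. Their median was 0.45 below that of all genes in QGP-1 and 0.22 below it in BON-1 cells. GINS3 (chr16:58295080-58406147), the one called in both, was at 20.4, 13.8 and 17.1 CPM with vehicle and 11.9, 12.3 and 14.1 CPM with DOX in QGP-1 cells (log2 fold change -0.42, SE 0.14, edgeR adjusted p = 0.0281). In BON-1 cells GINS3 was at 16.4, 17.9 and 16.6 CPM and 12.8, 13.99 and 12.01 CPM (log2 fold change -0.39, SE 0.13, edgeR adjusted p = 0.02500). The QGP-1 groups overlapped and the BON-1 groups did not. The call was lost in QGP-1 cells without vehicle replicate 1, vehicle replicate 3, DOX replicate 1 or DOX replicate 2 (edgeR adjusted p between 0.0549 and 0.153), and in BON-1 cells without vehicle replicate 2, DOX replicate 1 or DOX replicate 3 (edgeR adjusted p between 0.0509 and 0.0917). GINS1 was at 145, 153 and 165 CPM with vehicle and 129.5, 95.9 and 106 CPM with DOX in QGP-1 cells (log2 fold change -0.48, SE 0.10, edgeR adjusted p = 0.00164). In BON-1 cells GINS1 was at 285, 279 and 290.4 CPM and 297, 267 and 302 CPM (log2 fold change 0.02, SE 0.08, edgeR adjusted p = 0.867). The groups were apart in QGP-1 cells, with DOX replicate 1 nearest the vehicle libraries, and overlapped in BON-1 cells. GINS1 shares 259 exonic bases with NINL on the other strand. GINS4 was at 16.3, 21.8 and 20.3 CPM with vehicle and 14.9, 12.2 and 12.3 CPM with DOX in QGP-1 cells (log2 fold change -0.57, SE 0.13, edgeR adjusted p = 0.00333). Its BON-1 levels were 10.9, 10.7 and 9.95 CPM and 8.15, 9.36 and 10.4 CPM (log2 fold change -0.18, SE 0.16, edgeR adjusted p = 0.413). The GINS4 groups were apart in QGP-1 and overlapped in BON-1 cells. CDC45 fell in QGP-1 cells from 28.9 ± 0.913 to 20.9 ± 1.16 CPM (SD, n = 3; log2 fold change -0.46, SE 0.09, edgeR adjusted p = 0.00126) and GINS2 from 68.3 ± 8.16 to 49.9 ± 7.04 CPM (SD, n = 3; log2 fold change -0.45, SE 0.11, edgeR adjusted p = 0.00534). Their BON-1 values of -0.24 and -0.23 were not called.

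Polymerase alpha-primase, which makes the RNA-DNA primer of each new strand, had all 4 subunits called lower in QGP-1 cells and 3 of 4 in BON-1 cells. Its median was 0.47 and 0.44 below that of all genes, in that order. PRIM1 (chr12:56730438-56752374), the catalytic primase subunit, was at 64.2, 70.8 and 71.2 CPM with vehicle and 39.3, 39.999 and 44.03 CPM with DOX in QGP-1 cells (log2 fold change -0.74, SE 0.08, edgeR adjusted p = 1.62e-05). In BON-1 cells PRIM1 was at 53.5, 49.7 and 62.4 CPM and 42.04, 36.4 and 43.4 CPM (log2 fold change -0.44, SE 0.10, edgeR adjusted p = 0.000916). The groups were far apart in QGP-1 cells and also did not overlap in BON-1 cells. The annotated exons of PRIM1 share 139 bases with NACA on the same strand, so reads there could be counted to either gene. POLA2 (chr11:65261913-65305959), the accessory subunit, was at 33.5, 39.3 and 35.6 CPM with vehicle and 26.7, 23.1 and 26.003 CPM with DOX in QGP-1 cells (log2 fold change -0.52, SE 0.09, edgeR adjusted p = 0.000866). In BON-1 cells POLA2 was at 22.05, 23.7 and 24.1 CPM and 18.5, 17.3 and 13.1 CPM (log2 fold change -0.52, SE 0.13, edgeR adjusted p = 0.00266). POLA2 fell by the same amount in both lines to 2 decimals, without overlap. POLA1 (chrX:24693873-24996986), the catalytic polymerase, was at 77.97, 73.4 and 73.5 CPM with vehicle and 64.4, 62.3 and 63.1 CPM with DOX in QGP-1 cells (log2 fold change -0.24, SE 0.07, edgeR adjusted p = 0.0159), a call lost without vehicle replicate 1 or DOX replicate 2 (edgeR adjusted p between 0.0635 and 0.0712). In BON-1 cells POLA1 was at 41.3, 39.95 and 36.6 CPM and 28.4, 31.4 and 26.5 CPM (log2 fold change -0.45, SE 0.10, edgeR adjusted p = 0.000938). Neither line had overlapping POLA1 groups. PRIM2, the large primase subunit, was at 53.9, 52.8 and 53.5 CPM with vehicle and 40.3, 36.3 and 40.2 CPM with DOX in QGP-1 cells (log2 fold change -0.46, SE 0.08, edgeR adjusted p = 0.000568). In BON-1 cells PRIM2 was at 38.5, 37.02 and 34.7 CPM and 39.9, 37.4 and 34.8 CPM (log2 fold change 0.02, SE 0.10, edgeR adjusted p = 0.891). The PRIM2 groups were apart in QGP-1 and intermingled in BON-1 cells.

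The strand-extending polymerases changed less evenly. POLE2 (chr14:49643555-49688422), the second subunit of polymerase epsilon, was at 41.7, 47.4 and 48.6 CPM with vehicle and 31.4, 26.7 and 29.9 CPM with DOX in QGP-1 cells (log2 fold change -0.65, SE 0.09, edgeR adjusted p = 0.000144). In BON-1 cells POLE2 was at 56.3, 64.6 and 67.95 CPM and 53.1, 45.6 and 56.6 CPM (log2 fold change -0.28, SE 0.10, edgeR adjusted p = 0.0239). BON-1 DOX replicate 3 lay just above vehicle replicate 1, and the BON-1 call was lost without vehicle replicate 2, vehicle replicate 3 or DOX replicate 2 (edgeR adjusted p between 0.0818 and 0.137) and with limma on centred TPM (adjusted p = 0.0609). POLE, the catalytic subunit, was not called, with 0.03 in QGP-1 and -0.15 in BON-1 cells. Polymerase delta, which extends the lagging strand, had 1 of 3 subunits called lower in QGP-1 and 0 of 3 in BON-1 cells. POLD3 was at 52.3, 49.7 and 52.4 CPM with vehicle and 45.6, 43.9 and 42.5 CPM with DOX in QGP-1 cells (log2 fold change -0.23, SE 0.08, edgeR adjusted p = 0.0335). In BON-1 cells POLD3 was at 25.7, 22.2 and 25.4 CPM and 22.1, 20.4 and 24.5 CPM (log2 fold change -0.13, SE 0.12, edgeR adjusted p = 0.411). The groups were apart in QGP-1 and overlapped in BON-1 cells, and the POLD3 call was lost without vehicle replicate 1, vehicle replicate 2, vehicle replicate 3, DOX replicate 2 or DOX replicate 3 (edgeR adjusted p between 0.0614 and 0.112) and with no low-count filter or a joint fit of the lines (adjusted p between 0.0624 and 0.0662). The catalytic subunit POLD1 had values of -0.18 and -0.11, and POLD2 of -0.20 and -0.11, in the same order of lines, with no call.

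RFC, the complex that opens PCNA and closes it around DNA, had 4 of 5 subunits called lower in each line and a median 0.27 below that of all genes in each. RFC4 (chr3:186789880-186807058) was at 28.1, 25.9 and 29.4 CPM with vehicle and 16.1, 17.4 and 21.7 CPM with DOX in QGP-1 cells (log2 fold change -0.60, SE 0.12, edgeR adjusted p = 0.00122). In BON-1 cells RFC4 was at 48.7, 53.7 and 54.8 CPM and 41.7, 38.8 and 39.2 CPM (log2 fold change -0.39, SE 0.09, edgeR adjusted p = 0.00122). The RFC4 groups were apart in both lines. RFC3 (chr13:33818069-33966558) was at 105, 114 and 127 CPM with vehicle and 96.2, 91.99 and 96.02 CPM with DOX in QGP-1 cells (log2 fold change -0.28, SE 0.08, edgeR adjusted p = 0.0117). In BON-1 cells RFC3 was at 101, 101 and 99.3 CPM and 82.2, 80.6 and 85.3 CPM (log2 fold change -0.28, SE 0.08, edgeR adjusted p = 0.00594). The RFC3 groups did not overlap in either line. RFC2 (chr7:74231499-74254458) was at 75.01, 78.9 and 82.9 CPM with vehicle and 67.8, 61.3 and 70.6 CPM with DOX in QGP-1 cells (log2 fold change -0.25, SE 0.08, edgeR adjusted p = 0.0256). In BON-1 cells RFC2 was at 50.8, 50.6 and 50.01 CPM and 43.5, 43.1 and 41.02 CPM (log2 fold change -0.25, SE 0.09, edgeR adjusted p = 0.0295). RFC2 fell by nearly equal amounts without overlap, but its call was lost in QGP-1 cells without vehicle replicate 2, vehicle replicate 3 or DOX replicate 2 (edgeR adjusted p between 0.0726 and 0.137) and with limma on centred TPM (adjusted p = 0.0546), and in BON-1 cells without vehicle replicate 1, vehicle replicate 2 or vehicle replicate 3 (edgeR adjusted p between 0.0549 and 0.0712). RFC5 was called lower in QGP-1 cells (log2 fold change -0.38, SE 0.09, edgeR adjusted p = 0.00381) with -0.16 in BON-1 cells. RFC1, the large subunit, was called lower in BON-1 cells (log2 fold change -0.31, SE 0.10, edgeR adjusted p = 0.0144), a call lost without vehicle replicate 1 (edgeR adjusted p = 0.107), with -0.03 in QGP-1 cells.

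PCNA, the sliding clamp that holds polymerases on DNA, was at 571, 581 and 621 CPM with vehicle and 402, 425 and 477 CPM with DOX in QGP-1 cells (log2 fold change -0.44, SE 0.07, edgeR adjusted p = 0.0004297). In BON-1 cells PCNA was at 496, 552 and 536 CPM and 527, 449 and 470.0 CPM (log2 fold change -0.13, SE 0.08, edgeR adjusted p = 0.208). The PCNA groups were apart in QGP-1 and overlapped in BON-1 cells, and 3 annotated pseudogenes could share its reads. LIG1, which seals Okazaki fragments, was at 26.1, 28.9 and 26.7 CPM with vehicle and 23.5, 25.2 and 18.8 CPM with DOX in BON-1 cells (log2 fold change -0.28, SE 0.12, edgeR adjusted p = 0.0693). In QGP-1 cells LIG1 was at 32.4, 37.02 and 29.8 CPM and 34.5, 37.5 and 36.8 CPM (log2 fold change 0.13, SE 0.09, edgeR adjusted p = 0.308). It was not called in either line, with the BON-1 groups apart and the QGP-1 groups overlapping. FEN1, the flap nuclease, was called lower in BON-1 cells (log2 fold change -0.26, SE 0.09, edgeR adjusted p = 0.0221), a call lost without vehicle replicate 1 or DOX replicate 1 (edgeR adjusted p between 0.0588 and 0.1198), with -0.14 in QGP-1 cells. RPA, which coats single-stranded DNA, had 1 of 3 subunits called lower in QGP-1 and 0 of 3 in BON-1 cells. RPA3 was at 50.8, 62.6 and 69.9 CPM with vehicle and 39.9, 41.6 and 45.4 CPM with DOX in QGP-1 cells (log2 fold change -0.53, SE 0.11, edgeR adjusted p = 0.00156). In BON-1 cells RPA3 was at 33.98, 45.6 and 43.8 CPM and 39.3, 31.6 and 38.6 CPM (log2 fold change -0.17, SE 0.11, edgeR adjusted p = 0.254). The QGP-1 groups of RPA3 were apart, and the BON-1 groups overlapped. RPA1 was at 56.8, 46.1 and 43.7 CPM with vehicle and 40.8, 42.96 and 39.9 CPM with DOX in BON-1 cells (log2 fold change -0.25, SE 0.10, edgeR adjusted p = 0.0537). In QGP-1 cells RPA1 was at 122, 114 and 111 CPM and 112, 105 and 105 CPM (log2 fold change -0.11, SE 0.07, edgeR adjusted p = 0.236). RPA1 was thus apart in BON-1 cells without a call. RPA2 had values of -0.18 and -0.13, not called.

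The histone chaperones that assemble nucleosomes behind the fork had the lowest median of the complexes in both lines, 0.53 below that of all genes in QGP-1 and 0.48 below it in BON-1 cells, with 2 of 3 and 3 of 3 called lower. This order turned without QGP-1 DOX replicate 1, when CDC45 and GINS were lowest (-0.53, against -0.51 for polymerase alpha-primase and -0.47 for the chaperones), and without BON-1 vehicle replicate 1, when polymerase alpha-primase was lowest (-0.43, against -0.38 for the chaperones). CHAF1B (chr21:36385392-36419015) was at 39.3, 39.5 and 37.7 CPM with vehicle and 28.4, 23.6 and 23.5 CPM with DOX in QGP-1 cells (log2 fold change -0.62, SE 0.09, edgeR adjusted p = 0.000215). In BON-1 cells CHAF1B was at 32.8, 29.3 and 33.1 CPM and 21.1, 20.6 and 19.03 CPM (log2 fold change -0.65, SE 0.11, edgeR adjusted p = 3.22e-05). The CHAF1B groups were far apart in both lines. CHAF1B shares 89 exonic bases with MORC3 on the same strand. ASF1B (chr19:14119512-14136613), which hands histones to CAF-1, was at 33.99, 34.6 and 33.4 CPM with vehicle and 21.1, 23.2 and 25.5 CPM with DOX in QGP-1 cells (log2 fold change -0.55, SE 0.09, edgeR adjusted p = 0.000497). In BON-1 cells ASF1B was at 56.3, 50.1 and 42.6 CPM and 37.6, 37.1 and 31.9 CPM (log2 fold change -0.49, SE 0.10, edgeR adjusted p = 0.000548). No ASF1B groups overlapped. CHAF1A, the large CAF-1 subunit, was called lower in BON-1 cells (log2 fold change -0.31, SE 0.10, edgeR adjusted p = 0.0163), a call lost without vehicle replicate 2 (edgeR adjusted p = 0.0592), and had -0.21 in QGP-1 cells with an edgeR adjusted p of 0.0722.

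**Figure D2:**
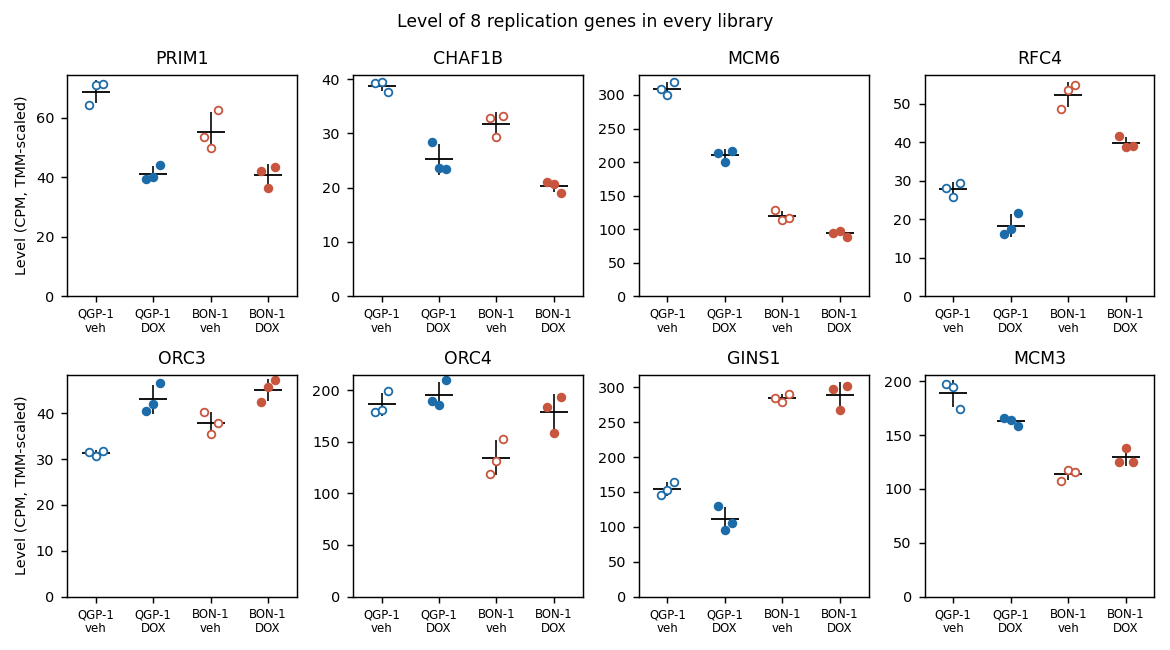
The panels show the level of 8 replication genes in CPM (vertical axes from 0) in each of the 12 libraries, with open points for vehicle and filled points for DOX, horizontal dashes for group means and bars for the SD (n = 3). PRIM1, CHAF1B, MCM6 and RFC4 lie lower with DOX in both lines, ORC3 lies higher in both, ORC4 lies higher in BON-1 cells, and GINS1 and MCM3 lie lower with DOX in QGP-1 but not in BON-1 cells.

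**Figure D3:**
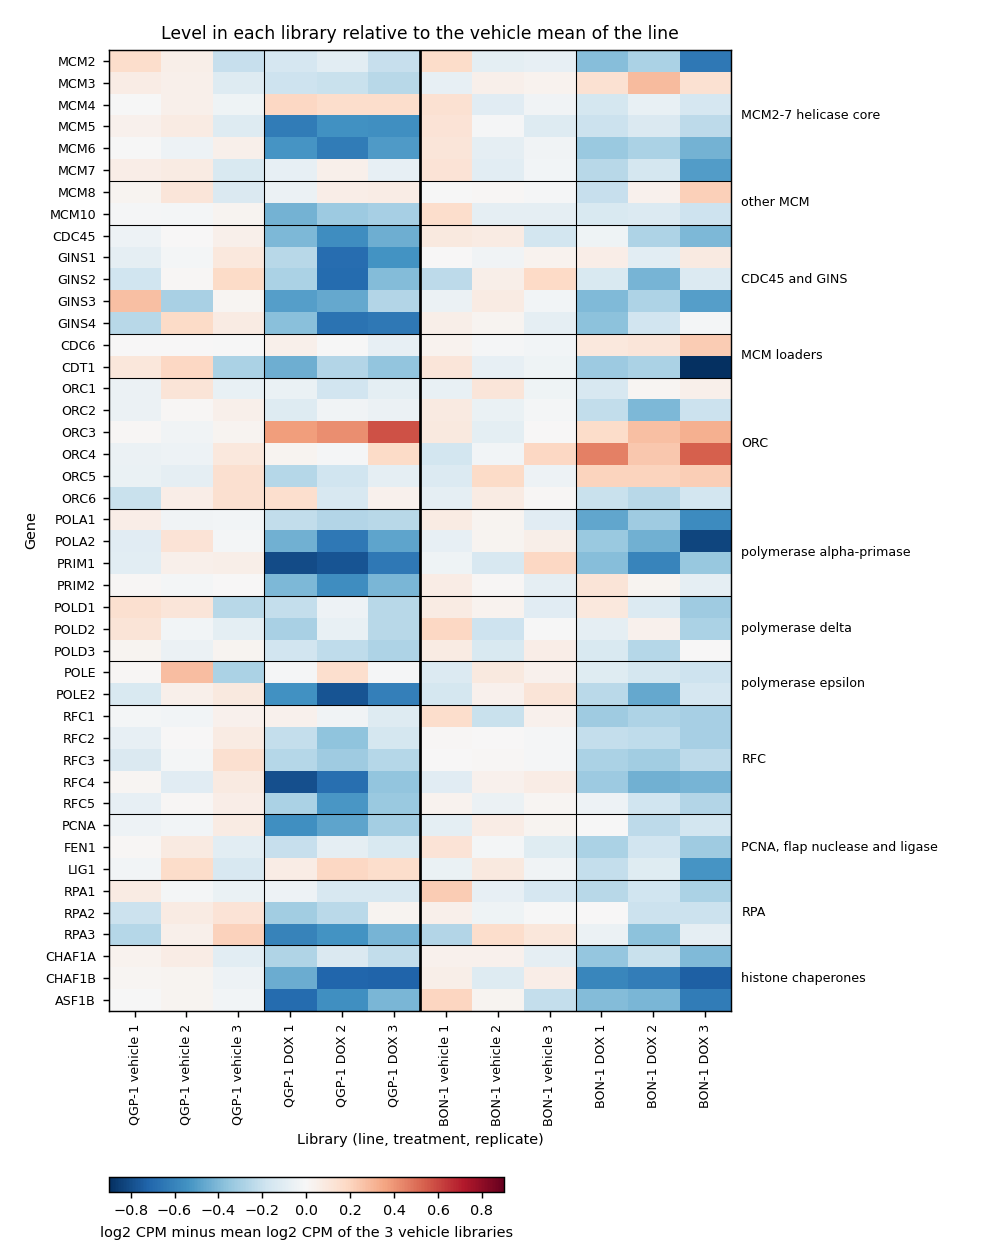
The heat map shows, for the 44 replication genes (rows, by complex) in the 12 libraries (columns), log2 CPM minus the mean of the 3 vehicle libraries of the same line, with blue below and red above it. The DOX columns are mostly blue in both lines, the block of CDC45 and GINS is darker in QGP-1 than in BON-1 cells, and ORC3 stands out in red in both.

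To test whether the lines responded differently, the interaction of line and DOX was fitted over all 12 libraries. It was called for 5 of the 44 members, beside 16.7 percent of 16598 genes. In all 5 the log2 fold change was higher in BON-1 cells, a direction called for 8.8 percent of genes, and 0 members were called in the other direction, beside 7.92 percent. The difference was 0.51 for GINS1 (SE 0.13, edgeR adjusted p = 0.00641). PRIM2 differed by 0.48 (SE 0.12, edgeR adjusted p = 0.00835). For MCM3, whose DOX levels lay below vehicle in QGP-1 and above it in BON-1 cells, the difference was 0.41 (SE 0.10, edgeR adjusted p = 0.00758). These 3 calls held when any single library was left out. MCM5 differed by 0.40 (SE 0.12, edgeR adjusted p = 0.0244), a call lost without QGP-1 vehicle replicate 1, QGP-1 vehicle replicate 2, QGP-1 DOX replicate 1, BON-1 vehicle replicate 2, BON-1 vehicle replicate 3, BON-1 DOX replicate 1 or BON-1 DOX replicate 2 (edgeR adjusted p between 0.05397 and 0.0895) and with library-size scaling (adjusted p = 0.0545). ORC5 differed by 0.39 (SE 0.13, edgeR adjusted p = 0.0391), a call lost without QGP-1 vehicle replicate 3, QGP-1 DOX replicate 1, QGP-1 DOX replicate 2, BON-1 vehicle replicate 1, BON-1 vehicle replicate 3, BON-1 DOX replicate 1, BON-1 DOX replicate 2 or BON-1 DOX replicate 3 (edgeR adjusted p between 0.0749 and 0.156) and with library-size scaling or no low-count filter (adjusted p between 0.05801 and 0.112). The count of members called fell to 3 without BON-1 DOX replicate 1. Among the 18 members called lower in 1 line and not in the other, the remaining 14 had no interaction call, so a difference between the lines was not shown for them.

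**Figure D4:**
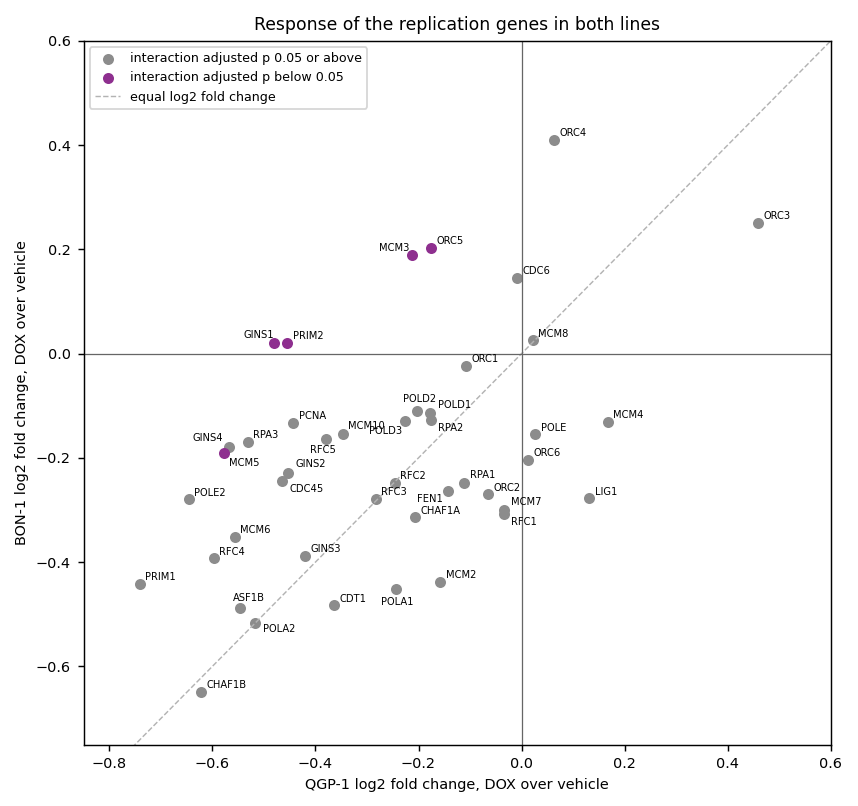
Each point is 1 of the 44 replication genes, with its log2 fold change of DOX over vehicle in QGP-1 (horizontal axis) and BON-1 cells (vertical axis), and purple marks the 5 genes with an interaction adjusted p below 0.05. Those 5 (MCM3, MCM5, GINS1, ORC5 and PRIM2) lie above the dashed line of equal change, and most of the other points lie at the lower left.

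Like most genes tested, most members already differed in level between the lines without DOX. With vehicle, 36 of 44 members differed between the lines, beside 74.9 percent of genes. In all, 28 were lower in BON-1 than in QGP-1 cells, beside 37.5 percent of genes, and 8 were higher, beside 37.5 percent. RFC1 had the largest difference downward (log2 difference -1.67, SE 0.09, edgeR adjusted p = 4.7e-15), followed by MCM6 (-1.45), ORC1 (-1.34) and RPA1 (-1.32). MCM8 had the largest upward (1.40, SE 0.09, edgeR adjusted p = 1.26e-12), followed by RPA2 (1.26), RFC4 (0.84) and GINS1 (0.81). The 8 members without a call were MCM2, GINS3, CDT1, ORC2, ORC3, ORC6, POLD1 and RFC5. QGP-1 cells were grown in RPMI medium and BON-1 cells in DMEM/F-12, and line, medium and sequencing depth cannot be told apart here.

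Subunit proportions were compared on the deposited TPM values, which are divided by gene length and so can be compared between genes of a library. Within MCM2-7, MCM6 took 28.2% ± 2.03 of the summed TPM in QGP-1 cells with vehicle and 22.8% ± 1.14 with DOX, and 15.9% ± 0.219 and 14.02% ± 0.241 in BON-1 cells (SD, n = 3 each). The MCM6 share was thus lower with DOX in both lines, without overlap between groups. Within GINS1 to GINS4, GINS2 took 54.9% ± 1.94 and 55.4% ± 1.42 in QGP-1 cells, and 31.7% ± 3.08 and 28.6% ± 1.23 in BON-1 cells. It was the leading subunit in QGP-1 cells, whereas GINS1 led in BON-1 cells. Within ORC1 to ORC6, ORC5 took 23.3% ± 1.22 and 20.7% ± 0.975 in QGP-1 cells, and 19.3% ± 1.63 and 21.4% ± 0.752 in BON-1 cells. The ORC5 share overlapped between the groups of BON-1 cells but not between those of QGP-1 cells. Within RFC1 to RFC5, RFC2 took 29.5% ± 0.363 and 29.9% ± 0.927 in QGP-1 cells, and 22.01% ± 0.399 and 22.6% ± 0.4998 in BON-1 cells. This share overlapped between the groups of each line. A single subunit per complex is given above, and other subunits also shifted without overlap between groups. Among them, MCM4 rose in QGP-1 cells from 10.9% to 14.5% and ORC3 from 8.98% to 12.3%, whereas MCM5 fell from 12.8% to 10.2%. In BON-1 cells MCM3 rose from 18.2% to 23.2% and ORC4 from 15.8% to 20.1%, whereas ORC6 fell from 25.1% to 20.9%. How the gene lengths were set is not given in the sources used here, so the shares depend on lengths that could not be checked.

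**Figure D5:**
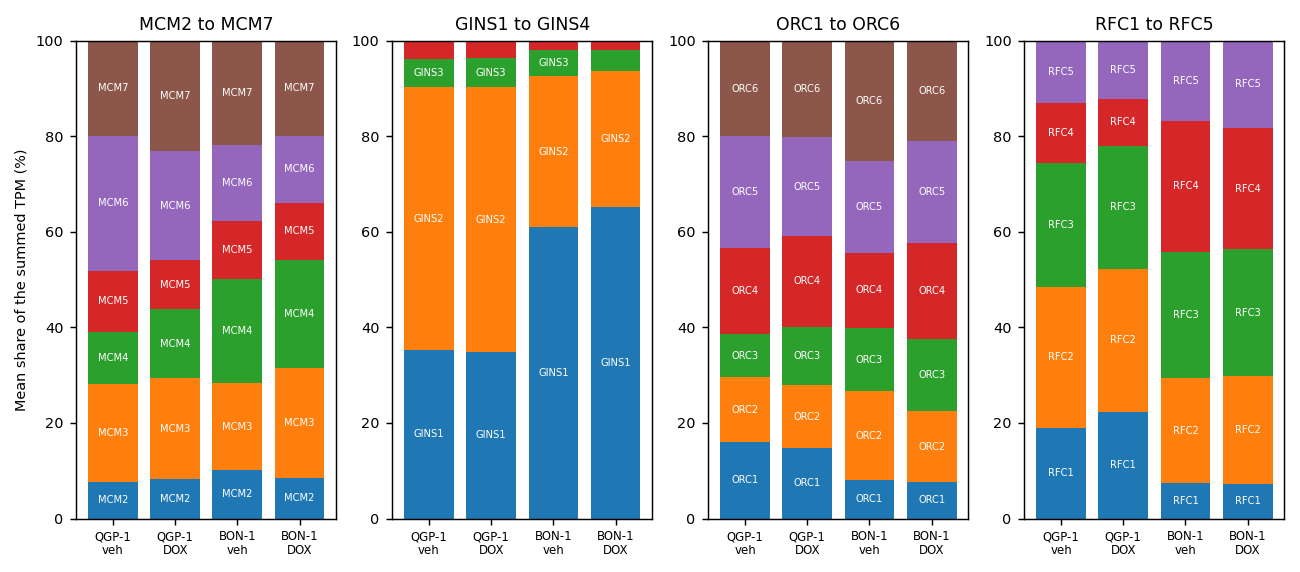
Stacked bars show the mean share of the summed TPM (vertical axis, in percent, n = 3) that each subunit takes within MCM2-7, GINS1-4, ORC1-6 and RFC1-5 in the 4 groups. The MCM6 segment is smaller with DOX in both lines, from 28.2% to 22.8% in QGP-1 and from 15.9% to 14.0% in BON-1 cells, and the GINS2 segment is larger in QGP-1 than in BON-1 cells.

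Replication genes outside the 44 were compared in the same way. Of 35 further factors (firing control, fork protection, further polymerase and clamp loader subunits, primer removal and other chaperones), 8 were lower and 3 higher in QGP-1 cells, and 11 were lower and 2 higher in BON-1 cells. The share called lower, 22.9% and 31.4%, lay between the backgrounds of 17.7 and 18.3 percent and the shares of the 44 members. The share called higher, 8.57% and 5.71%, lay below the backgrounds of 17.3 and 17.0 percent. Their medians were 0.11 and 0.16 below that of all genes. In both lines, 4 of the 35 were lower, beside 7.23 percent of the 13535 genes that both fits tested. They were the kinase CDC7 that fires origins (-0.21 in QGP-1 and -0.33 in BON-1 cells), the MCM-binding protein MCMBP (-0.20 and -0.26), the nuclease DNA2 (-0.27 and -0.35) and RNASEH2A, a subunit of the enzyme that removes RNA from DNA (-0.34 and -0.68). The calls of RNASEH2A in both lines and of CDC7, MCMBP and DNA2 in BON-1 cells held in all 13 alternative runs compared gene by gene. Those runs did not include limma on uncentred TPM. In QGP-1 cells the CDC7 call was lost without vehicle replicate 2, vehicle replicate 3, DOX replicate 2 or DOX replicate 3 (edgeR adjusted p between 0.0661 and 0.118) and with no low-count filter (adjusted p = 0.0535). That of MCMBP was lost without vehicle replicate 1, vehicle replicate 2, vehicle replicate 3, DOX replicate 2 or DOX replicate 3 (edgeR adjusted p between 0.0578 and 0.168) and with limma on centred TPM (adjusted p = 0.0833). That of DNA2 was lost without vehicle replicate 2, vehicle replicate 3, DOX replicate 1, DOX replicate 2 or DOX replicate 3 (edgeR adjusted p between 0.0531 and 0.122). DBF4B, an activator of CDC7, was called in opposite directions: it had 9.07, 8.42 and 8.76 CPM with vehicle and 12.002, 13.8 and 10.9 CPM with DOX in QGP-1 cells (log2 fold change 0.48, SE 0.12, edgeR adjusted p = 0.00793), and 7.74, 11.2 and 11.2 CPM and 7.96, 6.97 and 5.75 CPM in BON-1 cells (log2 fold change -0.54, SE 0.19, edgeR adjusted p = 0.0249). The QGP-1 call of DBF4B was lost without DOX replicate 2 (edgeR adjusted p = 0.05096) and with limma on centred TPM (adjusted p = 0.543), where its value was -0.06 on the log2(TPM + 1) scale, and the BON-1 call without vehicle replicate 2, vehicle replicate 3 or DOX replicate 3 (edgeR adjusted p between 0.0915 and 0.114) and with limma on centred TPM (adjusted p = 0.436). Of 12 mitosis genes, 2 were lower and 2 higher in QGP-1 cells, with a median equal to that of all genes to 2 decimals, and 7 were lower and 1 higher in BON-1 cells, with a median 0.36 below it.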

How the data were processed

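The 12 RNA-seq libraries, 3 in each of 4 groups, came from QGP-1 and BON-1 cells that carry the inducible MUC1 hairpin. Libraries were made with a stranded mRNA kit and aligned with STAR to GRCh38, and the study used DESeq2. The counting program, its strand setting and its treatment of reads with several matches are not given in the sources used here. The authors deposited raw counts per gene for each line, and TPM values made from those counts by division by a gene length and scaling of each library. Columns were matched to libraries by the names in the labels, and 0 columns were left unused.

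Counts were tested within each line with edgeR 4.0.16 in R 4.3.3 (its default low-count filter, TMM, quasi-likelihood test, Benjamini-Hochberg adjustment over all tested genes). The response of the lines and their vehicle levels were compared in 1 edgeR fit of all 12 libraries. CPM were scaled by TMM. The SE was the absolute log2 fold change divided by the square root of its F statistic. Intervals used a normal quantile of this SE, so they are somewhat narrower than intervals from the F test would be. An exact permutation test of 3 against 3 libraries cannot go below a two-sided p of 0.1 and was not used. The study describes the replicates as triplicates of cultured cells, and whether they came from separate transductions is not given in the sources used here, so p-values measure the spread between these samples only. Depth was 15981954 to 50525926 counts, and no pair of replicates agreed within sampling noise (chi-square per gene 5.92 to 29.7). Same-numbered vehicle and DOX libraries did not deviate together (correlations -0.039 to 0.067). The code was tested on simulated counts.

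The members, the 35 further replication genes, the 12 mitosis genes and the cell type markers were chosen with earlier results of these data known, and the lists were written from general knowledge. Values in every library were given for members called in the same direction in both lines, called higher in either line or called for the interaction, and for the member with the largest absolute log2 fold change of each complex in each line. Of the further genes, those called in both lines were named. Gene positions and overlaps come from GENCODE 44 and promoters from RefSeq, both on GRCh38. E2F and CCAAT motifs were searched as letters on both strands.

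Alternatives were DESeq2 1.42.0, library size in place of TMM, no low-count filter, a floor of 10 counts per library, a replicate block, a joint fit of both lines, limma 3.58.1 on log2(TPM + 1), with mean TPM of 1 or more required, with and without centring on the median of all genes, counts in place of TPM for subunit shares, and leaving out each library in turn. In fits that left out a library, the spread was shared over the remaining libraries of the fit.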

Additional observations from a re-analysis of the deposited data

Results flagged for a closer look

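The following genes are given because the effect of DOX differed between the cell lines by a test of the interaction itself. Each value is the log2 fold change in BON-1 minus that in QGP-1 cells, with the edgeR adjusted p over 16598 genes. It was 0.51 for GINS1 (adjusted p = 0.00641), 0.48 for PRIM2 (adjusted p = 0.00835), 0.41 for MCM3 (adjusted p = 0.00758), 0.40 for MCM5 (adjusted p = 0.0244) and 0.39 for ORC5 (adjusted p = 0.0391). The MCM5 and ORC5 calls were lost in several fits that left out a library, as given above. DBF4B, outside the 44 members, had -1.01 (adjusted p = 0.00322). Other genes among the 35 further replication genes were also called (edgeR adjusted p below 0.05). The difference was positive for GMNN (0.61), POLD4 (0.81), POLE4 (0.69) and ASF1A (0.43). It was negative for TIMELESS (-0.40), TOP2A (-0.50), TOP2B (-0.32) and SSRP1 (-0.36). GINS1 and PRIM2 fell in QGP-1 cells and lay near 0 in BON-1 cells, and MCM5 fell in QGP-1 cells with a smaller value of the same sign in BON-1 cells. With 3 libraries in each group, no single library could be tested as standing apart from its group.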

How the results depend on the processing

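The 12 libraries are 3 per group, so that a fall of the size seen here can be lost when 1 is left out. Of the called members, 19 of 25 in QGP-1 and 11 of 20 in BON-1 cells were called in every fit that left out a library. The uncentred log2(TPM + 1) scale moved the median of all genes to 0.59 in QGP-1 and to -0.31 in BON-1 cells, and its counts are given for completeness: 0 members lower and 30 higher in QGP-1 cells, 0 lower and 0 higher in BON-1 cells, and 0 lower or higher in both. After centring, 24 and 17 members were lower and 11 were lower in both. The centred and the uncentred median of the QGP-1 members minus that of all genes was -0.16. With leave-one-out fits, members lower ran from 19 to 24 in QGP-1 and from 14 to 17 in BON-1 cells, lower in both from 9 to 13, higher in both from 0 to 1, higher in BON-1 cells from 1 to 2, called for the interaction from 3 to 7, further replication genes lower in QGP-1 cells from 4 to 8 and higher in BON-1 cells from 0 to 3. Members higher in QGP-1 cells were 2 with DESeq2, library size, at least 10 counts, the replicate block or centred TPM. Members higher in BON-1 cells were 1, and members higher in both were 0, with library size, no filter or centred TPM. The interaction was called for 8 members with at least 10 counts in every library, and 1 further replication gene was higher in BON-1 cells with centred TPM. With the replicate block, 24 members were lower in QGP-1 and 18 in BON-1 cells, and beyond the added QGP-1 rise the block moved no count of member calls past 1.5 times. Since the numbers did not pair the libraries, it has no meaning beyond this.

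Complex medians minus that of all genes moved with centred TPM in QGP-1 cells to -0.074 for MCM2-7, -0.36 for CDC45 and GINS, 0.060 for ORC, -0.38 for polymerase alpha-primase, -0.16 for RFC, -0.020 for the group of PCNA, FEN1 and LIG1, and -0.42 for the histone chaperones. Leave-one-out ranges in QGP-1 cells were -0.25 to -0.12 for MCM2-7, -0.53 to -0.38 for CDC45 and GINS, -0.077 to 0.030 for ORC and -0.24 to -0.13 for polymerase delta. In BON-1 cells they were -0.21 to -0.081 for RPA and -0.57 to -0.38 for the histone chaperones. With counts in place of TPM, the MCM6 share was 16.2% with vehicle and 14.4% with DOX in BON-1 cells. The GINS2 share was 26.3% and 26.8% in QGP-1 and 11.9% and 10.4% in BON-1 cells, the ORC5 share 14.9% and 13.1%, and 12.9% and 13.4%, and the RFC2 share 18.7% and 18.2%, and 16.4% and 16.7%. Counts are not divided by gene length, which is how the shares come to differ.

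Directions turned for members near 0, none of them called. In QGP-1 cells centred TPM gave 0.025 for MCM7, -0.00055 for MCM8, 0.041 for CDC6, -0.026 for POLE and 0.0028 for RFC1, and library size gave 0.0055 for CDC6. Leave-one-out ranges were -0.10 to 0.00034 for MCM7, -0.042 to 0.078 for MCM8, -0.028 to 0.018 for CDC6, -0.082 to 0.090 for ORC6, -0.11 to 0.17 for POLE and -0.063 to 0.0021 for RFC1. In BON-1 cells centred TPM gave -0.014 for MCM8 and -0.020 for GINS1, library size gave -0.019 for MCM8, -0.026 for GINS1 and -0.025 for PRIM2, and no filter gave -8.4e-05 for GINS1. Leave-one-out ranges were -0.10 to 0.12 for MCM8, -0.032 to 0.063 for GINS1, -0.078 to 0.024 for ORC1 and -0.035 to 0.054 for PRIM2. The QGP-1 value of DBF4B, called with counts, turned to -0.059 with centred TPM. The cause of these changes was not tested.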

Other observations

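The CCAAT box, another short promoter element, was present on either strand in a promoter of 23 of the 38 members (60.5%). The CCAAT share was 39.7% of all genes with a promoter and 43.6% of those tested in both lines. The box was in 4 of the 12 members lower in both lines and in 19 of the 26 other members with a promoter. The E2F motif was in 7 of those 12 and in 11 of those 26. These are counts of letters and say nothing of binding.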
